A study of Mus musculus with 2 samples.

Results

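Natural killer (NK) cells were followed in single-cell RNA of CT26 tumors, a mouse colon carcinoma line grown under the skin. NK cells were selected on their transcripts: a cell barcode needed 2 or more unique molecular identifiers (UMIs, 1 per captured RNA molecule) of *Ncr1* and *Klre1* together, at most 1 UMI of *Cd3d*, *Cd3e* and *Cd3g* together and no *Cd8b1* UMI. *C1qa*, *C1qb* and *C1qc* together had to be under 5 and *Lyz2* under 20 UMIs per 10000 UMIs of the barcode, to leave out barcodes that also held macrophage RNA. This gave 597 NK cells among 13939 barcodes with under 20% mitochondrial UMIs, 332 from the untreated (UT) library and 265 from the BUP-treated library.

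NK cells are lymphocytes that kill without a rearranged antigen receptor. Germline-encoded activating receptors, such as NKp46 (*Ncr1*) and NKG2D (*Klrk1*), and inhibitory receptors that read MHC class I set whether a cell fires, and killing runs through granules that hold perforin and granzymes. NK cells also secrete chemokines and cytokines, among them XCL1, which draws conventional dendritic cells, and IFN-γ, and in tumors part of them takes on a tissue-resident program under TGF-β.

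The tumors grew in young adult male BALB/c mice of wild-type genotype. UT mice received no treatment, and BUP-treated mice received BUP-Gel, a hydrogel that releases the local anesthetic bupivacaine. Live CD45+ and CD45- cells were sorted and mixed in a set ratio, and cells of 3 tumors were pooled into 1 library per condition. Each condition is a single library without replicates, so the conditions were not tested against each other. Values are given as UMIs of a gene summed over the NK cells per 1000000 UMIs of those cells (CPM), not divided by gene length, and intervals are 95% exact intervals for counting error alone. They leave out variation from mouse to mouse, from cell to cell and between library preparations.

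The NK cells held 3248739 UMIs in UT and 2575677 in BUP-treated tumors. Their median depth was 7805 UMIs (878 to 54293) and 8140 UMIs (602 to 47313), with medians of 2790.5 and 2750 detected genes and of 1.55% and 1.47% mitochondrial UMIs. Depth and mitochondrial share were thus close in the libraries. The libraries shared 76 barcode sequences in all and 1 among the NK cells. Of the NK cells, 8 in UT and 22 in BUP-treated tumors were among the 6% of barcodes with the highest doublet scores.

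The label was checked on genes the selection did not use. *Gzma* (granzyme A; ENSMUSG00000023132, chromosome 13 of GRCm39, 113230355 to 113237524) had a UMI in 88.9% of UT and 89.8% of BUP-treated NK cells, *Prf1* (perforin) in 97.6% and 93.6%, and *Klrg1* (an inhibitory receptor of mature NK cells) in 52.1% and 55.1%. In cells drawn down at random to 2000 UMIs each (thinned), *Gzma* had a UMI in 85.3% (81.0 to 89.0) of 327 UT and 86.4% (81.6 to 90.4) of 258 BUP-treated NK cells. Macrophage barcodes taken as background had one in 1.57% and 0.947%. By rule they held no UMI of *Ncr1*, *Klre1*, *Cd3d*, *Cd3e* or *Cd3g*, so this background is no full measure of NK RNA carried into other barcodes. *Eomes*, a transcription factor that separates NK cells from other innate lymphoid cells, was at 203.5 and 187.5 CPM. *Trac*, the constant segment of the αβ T cell receptor, was at 5.85 and 5.44 CPM in NK cells and at 273.0 and 302.6 CPM in CD8 T cells of the same libraries. Both selections used *Cd3d*, *Cd3e* and *Cd3g* UMIs, so the gap in *Trac* is no independent check. *Prf1* had a UMI in 83.3% and 81.3% of CD8 T cells too. *Trdc*, which NK cells as well as γδ T cells transcribe, was at 160.4 and 178.6 CPM.

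The threshold itself cut through a range. Barcodes with exactly 2 UMIs of *Ncr1* and *Klre1*, just inside, numbered 35 in UT and 27 in BUP-treated tumors and held *Gzma* at 2655 and 4222 CPM. Barcodes with exactly 1 UMI that met the other limits, just outside, numbered 52 and 51 and held *Gzma* at 1389 and 1291 CPM. Barcodes with none numbered 1845 and 3223 and held *Gzma* at 16.04 and 5.25 CPM. Some NK cells therefore lie outside the selection.

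NK cells made up 4.63% (4.16 to 5.15) of all barcodes in UT and 3.91% (3.46 to 4.40) in BUP-treated tumors. Among barcodes with a UMI of *Ptprc*, which encodes CD45, they were 6.25% (5.61 to 6.94) and 6.96% (6.17 to 7.81), so the order of the libraries turned with the denominator, and the intervals overlapped in both. T cells were barcodes with 2 or more UMIs of *Cd3d*, *Cd3e* and *Cd3g* together, under the same limits on C1q and *Lyz2*. Of these, 209 in UT and 323 in BUP-treated tumors also had 2 or more UMIs of *Ncr1* and *Klre1*. Among NK and T cells together, NK cells were 37.1% (33.9 to 40.3) of 895 in UT and 23.5% (21.0 to 26.0) of 1130 in BUP-treated tumors. Here the intervals did not overlap, and the T cell side of the ratio was larger in the BUP-treated library. The sort and mixing of CD45+ and CD45- cells sets the share of all barcodes, and fewer NK cells cannot be told apart from more T cells in such shares.

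Killing genes were the most abundant group, and most were somewhat lower in BUP-treated NK cells. Of 24 listed granule and killing genes, 22 reached 100 UMIs over both libraries. Their summed level was 42644 CPM in UT and 34707 in BUP-treated NK cells. A few cells weigh heavily in this sum: 8 UT cells held 83.0% of the *Gzmg* and 61.6% of the *Gzmf* UMIs of UT. As means over cells, *Gzmc*, *Gzmf* and *Gzmg* were higher in BUP-treated NK cells, whereas *Gzma*, *Gzmb*, *Gzmd* and *Prf1* were lower. The sum is therefore no measure of a decrease shared by the cells. Of the 22 ratios, 15 were below 0 on the log2 scale. The median log2 ratio (BUP over UT) was -0.20, beside -0.06 over all 6831 genes with 100 UMIs. No gene of the group was past 1.5-fold higher and 1 was past 1.5-fold lower, where 1.54% of all genes were past 1.5-fold higher and 2.74% lower, so the single call is near the background. These shares and the median of -0.06 are also the background for the gene lists that follow.

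*Gzma* had 8111 CPM in UT and 6203 in BUP-treated NK cells, a log2 ratio of -0.39 (-0.42 to -0.36). Per cell, *Gzma* ran from 0 to 473.2 UMIs per 10000 in UT with a median of 55.3, and from 0 to 413.2 in BUP-treated tumors with a median of 39.7. The cells of the libraries overlapped over nearly the whole range. *Prf1*, which opens the target cell membrane, was at 1961 and 1525 CPM (log2 ratio -0.36, -0.42 to -0.31), with cell medians of 15.9 and 10.7 UMIs per 10000. *Gzmb* was at 3059 and 2725 CPM (-0.17, -0.21 to -0.12), *Ctsc* (the protease that activates granzymes) at 116.0 and 78.0 CPM (-0.57, -0.83 to -0.32) and *Fasl* at 103.4 and 81.1 CPM (-0.35, -0.61 to -0.10). Further granule genes went in either direction. *Srgn*, the proteoglycan core that packs granzymes, was at 1527 and 1710 CPM (0.16, 0.10 to 0.22), and *Nkg7*, a granule membrane protein, was at 1764 and 1782 CPM (0.01, -0.04 to 0.07). *Ctsd* (cathepsin D) was at 940.7 and 767.6 CPM (-0.29, -0.38 to -0.21) and *Lamp1*, a lysosome membrane protein, at 165.3 and 150.6 CPM (-0.13, -0.33 to 0.06).

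**Figure D1:**
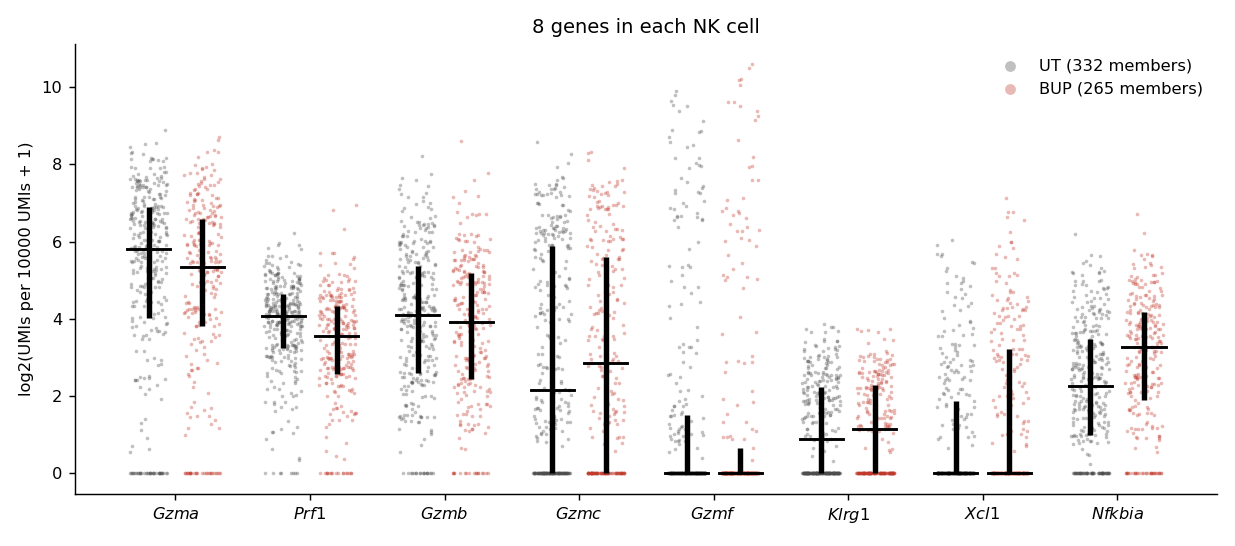
Level of 8 genes in each NK cell, as log2 of UMIs per 10000 UMIs plus 1, for 332 UT (grey) and 265 BUP-treated (red) cells. Each point is a cell, thick bars span the 25th to 75th percentile and horizontal lines are medians. *Gzma* and *Prf1* are in most cells of both libraries, *Gzmf* is at 0 in most cells and reaches 957.2 UMIs per 10000 in UT and 1535 in BUP-treated cells, and *Nfkbia* sits higher in BUP-treated cells.

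The other granzymes came from a cluster on chromosome 14 of GRCm39 that runs from *Gzme* (start 56355083) to *Gzmb* (end 56499717) over 144635 bases, in the order *Gzme*, *Gzmd*, *Gzmg*, *Gzmn*, *Gzmf*, *Gzmc* and *Gzmb*, all on the minus strand. *Gm4022*, on the plus strand, overlaps *Gzmn* and *Gzmf*. In UT and BUP-treated NK cells *Gzmf* was at 8423 and 6758 CPM, *Gzmd* at 4764 and 3408 CPM, *Gzmc* at 4605 and 4218 CPM, *Gzmg* at 3661 and 2262 CPM and *Gzme* at 1783 and 1370 CPM. *Gzmn* was near 0, at 2.77 and 1.55 CPM. *Gzmd*, *Gzme*, *Gzmf* and *Gzmg* are near-identical copies, and how reads divide among them is uncertain. *Gzmg* was the gene of the group past 1.5-fold (log2 ratio -0.69, -0.74 to -0.65), but 5 cells held 62.0% of its UMIs. The ratio turned to 0.33 as a mean over cells, to 0.80 without the 5% deepest cells of each library and to 0.41 in cells thinned to 2000 UMIs, so *Gzmg* had no stable direction. The means over cells of *Gzmf* were 40.0 UMIs per 10000 in UT and 52.9 in BUP-treated NK cells, against its summed CPM. The ratios of *Gzmf* and *Gzme* kept their sign in 5 of 8 alternatives, with highest values of 0.40 and 0.17.

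**Figure D2:**
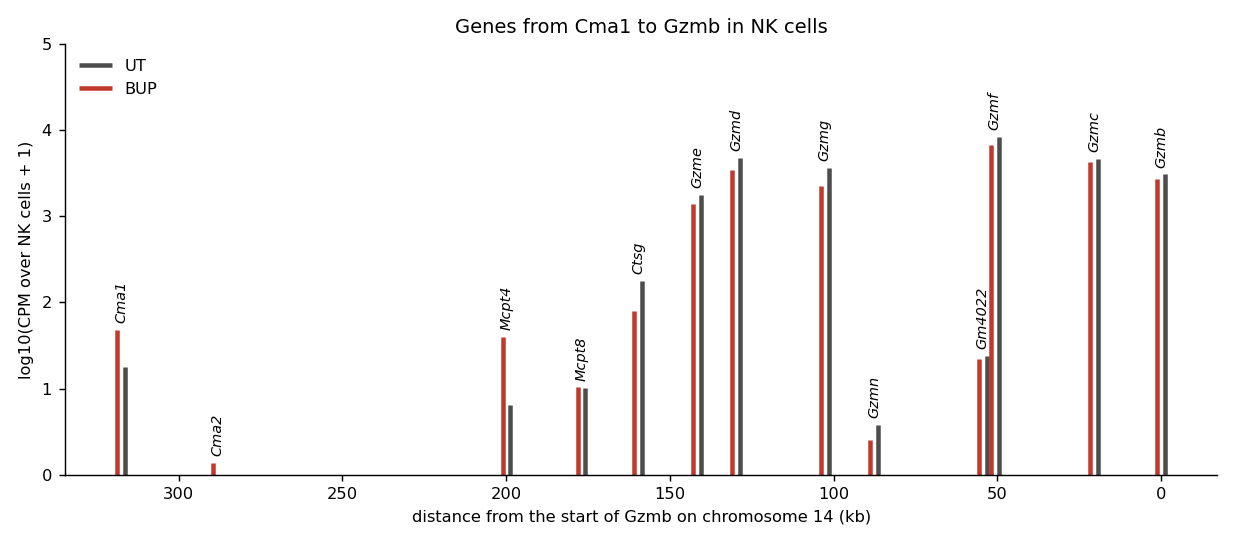
Level over NK cells, as log10 of CPM plus 1, of the genes from Cma1 to Gzmb on chromosome 14, placed by distance from the start of Gzmb in kb, for UT (grey) and BUP-treated (red) tumors. The granzyme genes other than Gzmn and the neighboring Ctsg stand above the mast cell protease genes Cma1, Mcpt4 and Mcpt8 further out.

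*Gzmd*, *Gzme*, *Gzmf* and *Gzmg* were not spread over all NK cells. In cells thinned to 2000 UMIs, 175 of 327 UT and 151 of 258 BUP-treated NK cells had no UMI of these 4 genes. Cells with 20 or more such UMIs, a limit set after the values were seen, numbered 59 in UT, which is 18.04% (14.03 to 22.65), and 42 in BUP-treated tumors, which is 16.28% (11.99 to 21.36). These cells held 96.3% and 93.7% of all UMIs of the 4 genes among thinned cells, and 20 and 13 cells lay near the limit, between 15 and 24 UMIs. The intervals of the share of such granzyme-rich cells overlapped. They were deeper than the rest, with medians of 12073 against 7015.5 UMIs in UT and 10898 against 7955 in BUP-treated tumors.

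Summed over cells, the granzyme-rich cells differed from the other NK cells in many further genes. Deep cells weigh most in such sums. Among the rich cells of UT were 8, those with 20 or more *Ctsg* UMIs described below, with a median depth of 42496 UMIs. The share of rich cells with each gene is not given, so the values do not describe each rich cell. The genes with the largest differences were picked after the values were seen and are a description. Only genes with the same direction in both libraries could be picked, so that agreement is no result. Genes outside the pick did not all keep a direction, such as *Nkg7* (log2 ratios -0.08 in UT and 0.27 in BUP-treated tumors) and *Klra3*, a receptor for MHC class I (-0.88 and 0.18). *Havcr2* (the inhibitory receptor TIM-3) was at 182.8 CPM in rich and 17.1 CPM in other cells of UT, and at 170.0 and 13.2 CPM in BUP-treated tumors. *Fcrl6*, an Fc receptor-like protein, was at 881.8 against 91.5 CPM and at 867.3 against 86.7 CPM. *Gzmc* was at 11020 against 2143 CPM and at 12196 against 2178 CPM, and *Spp1* (osteopontin) at 11441 against 2878 CPM and at 12469 against 3558 CPM. *Prf1* (log2 ratios 1.14 and 1.10), *Klrg1* (1.88 and 1.63), *Tnfrsf9* (the costimulatory receptor 4-1BB; 1.36 and 1.55) and *Itga1* (the residency integrin CD49a; 1.21 and 1.47) were higher in rich cells too. *Gzma* and *Gzmb* differed less, by 0.58 and 0.60 in UT and by 0.39 and 0.64 in BUP-treated tumors.

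Chemokine RNA was lower in the granzyme-rich cells. *Ccl4* was at 11.1 CPM in rich and 532.3 CPM in other NK cells of UT, and at 7.64 and 365.5 CPM in BUP-treated tumors. *Ccl5* was at 64.2 against 718.3 CPM and at 34.4 against 600.6 CPM, *Xcl1* at 141.8 against 430.1 CPM and at 36.3 against 757.4 CPM, and *Ifng* at 15.5 against 53.4 CPM and at 9.55 against 47.5 CPM. *Tcf7* (TCF-1, a factor of early NK cells) was at 1.11 against 67.1 CPM and at 3.82 against 60.8 CPM. *Ncr1*, which was used in the selection, was at 604.8 against 891.9 CPM and at 662.9 against 736.8 CPM. *Cd74* and *H2-Aa*, genes of MHC class II, and *Slit2* and *Hmga2* were also lower in rich cells, but 5 NK cells held 71.4% to 76.4% of the UMIs of each of the 4. The other NK cells are the remainder of the split and not a set of their own: over all thinned NK cells, *Ccl4* had a UMI in 15.6% and 17.4% and *Xcl1* in 22.9% and 34.9%.

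**Figure D3:**
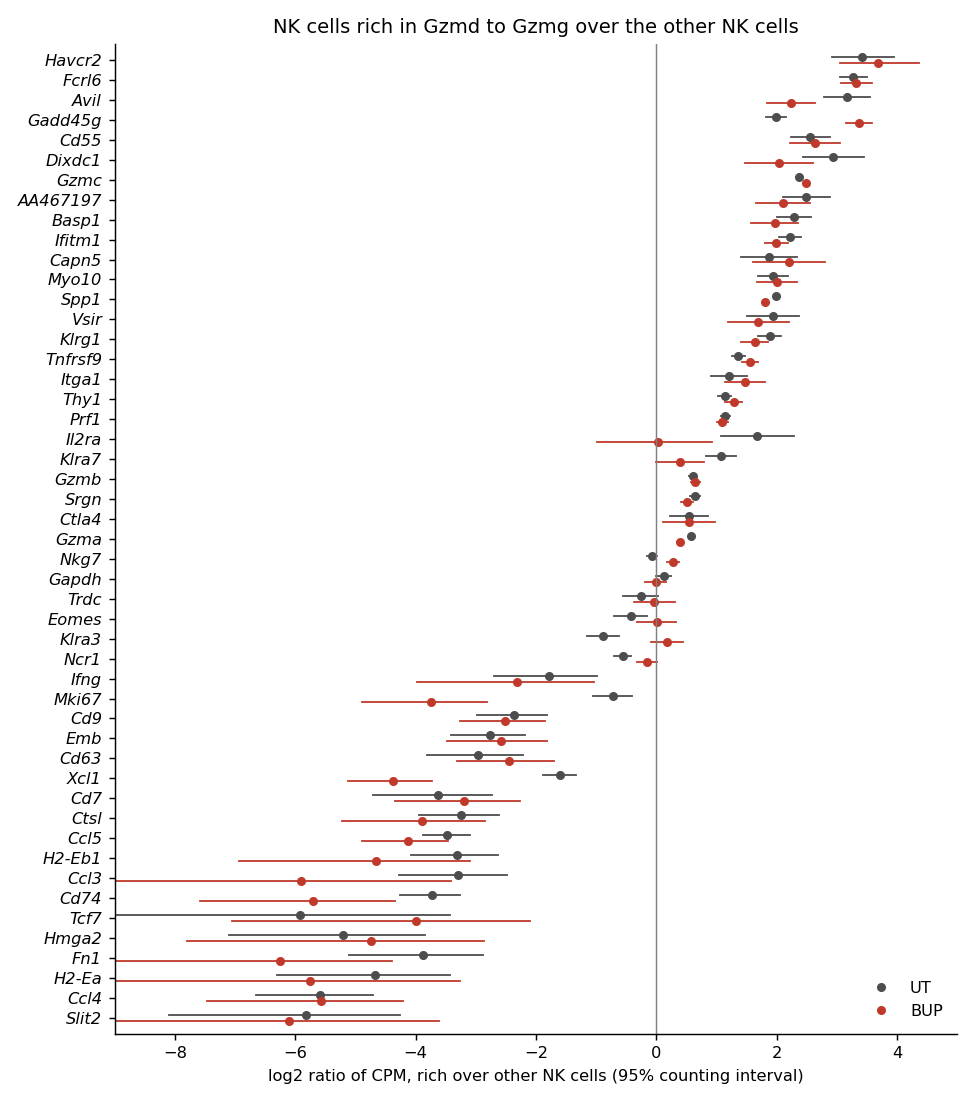
Log2 ratio of CPM of granzyme-rich over other NK cells in UT (grey) and BUP-treated (red) tumors. Shown are genes picked for the largest differences in the same direction in both libraries, and a set of NK genes. Ctsg, which had the largest ratio, and H2-Aa are left out, since each had no UMI in a class of 1 library. Points are ratios and lines are 95% counting intervals, ended at the edge of the plot where they run further. Of the genes shown, Havcr2 and Fcrl6 are at the top and Ccl4 is among the lowest in both libraries.

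*Ctsg* (cathepsin G, a granule protease better known from neutrophils; chromosome 14, 56337338 to 56340031) is the next gene after *Gzme*. It was found in 11 UT and 8 BUP-treated NK cells, at 177.6 and 77.7 CPM over all NK cells, and all 11 and all 8 also had a *Gzmg* UMI. The cells with 20 or more *Ctsg* UMIs, 8 in UT and 2 in BUP-treated tumors, held 83.0% and 49.2% of all *Gzmg* UMIs and 61.6% and 24.4% of all *Gzmf* UMIs. They were deep, with medians of 42496 and 21006.5 UMIs, and had at most 2 and 3 UMIs of mast cell proteases. A few cells thus held much of the summed *Gzmg*.

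None of 15 inhibitory receptors and 1 of 16 activating receptors was past 1.5-fold, *Crtam* (27.1 and 17.1 CPM, log2 ratio -0.67, -1.22 to -0.13), which was past it in 4 of 8 alternatives. The medians were -0.11 and -0.14. *Ncr1* and *Klre1*, on which the cells were selected, were at 812.6 and 726.8 CPM and at 168.4 and 220.9 CPM. *Klrk1* (NKG2D) was at 310.6 and 281.1 CPM, *Klrd1* (CD94) at 532.5 and 615.4 CPM and its partner *Klrc1* (NKG2A) at 280.7 and 298.6 CPM. *Klrg1* was at 278.3 and 257.8 CPM (-0.11, -0.26 to 0.04). *Fcgr3* (the Fc receptor CD16) was at 55.7 and 41.2 CPM (-0.44, -0.80 to -0.08).

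The Ly49 receptors, which bind MHC class I, were carried in a patchwork. In thinned cells, *Klra3* without *Klra7* was in 27.8% of UT and 26.4% of BUP-treated NK cells, *Klra7* without *Klra3* in 9.79% and 7.75%, both in 5.50% and 6.20%, and neither in 56.9% and 59.7%. *Klra3* was at 262.3 and 271.0 CPM and *Klra7* at 161.3 and 116.1 CPM (-0.47, -0.68 to -0.27). These genes are highly similar, and the Ly49 genes of BALB/c mice differ from those of the reference genome, so their counts are uncertain.

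The adaptor genes through which these receptors signal were stable as a group, with none of 16 past 1.5-fold and a median log2 ratio of -0.05. *Tyrobp* (DAP12) was at 1902 and 2182 CPM (0.20, 0.15 to 0.25), *Hcst* (DAP10, the adaptor of NKG2D) at 164.1 and 216.6 CPM (0.40, 0.23 to 0.57) and *Fcer1g* at 776.3 and 787.4 CPM (0.02, -0.06 to 0.11).

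Among cytokines and chemokines, *Xcl1* stood out (ENSMUSG00000026573; chromosome 1, 164759213 to 164763096). Its product attracts conventional dendritic cells that carry XCR1. *Xcl1* had 350.0 CPM in UT and 618.1 in BUP-treated NK cells, a log2 ratio of 0.82 (0.71 to 0.93). In thinned cells it was present in 22.9% (18.5 to 27.9) of UT and 34.9% (29.1 to 41.0) of BUP-treated NK cells. Macrophage barcodes, which by rule held no *Ncr1* or *Klre1* UMI, had it in 0.370% and 0.189%. More NK cells carried *Xcl1* in the BUP-treated library, and the intervals did not overlap. Per cell it reached 64.4 UMIs per 10000 in UT and 138.1 in BUP-treated tumors, with a median of 0 in both. The ratio stayed past 1.5-fold in all 8 alternatives, from 0.82 to 1.15.

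In CD8 T cells the summed level and the share of cells with *Xcl1* went in opposite directions. In CD8 T cells of the same libraries *Xcl1* had 159.8 CPM in UT and 60.5 in BUP-treated tumors (-1.40, -1.76 to -1.05), where 5 CD8 T cells held 66.2% of its UMIs. The share of CD8 T cells with an *Xcl1* UMI was 7.25% in UT and 11.4% in BUP-treated tumors, and 5.15% and 8.58% after thinning, the same direction as in NK cells. The difference of the log2 ratios of summed CPM, NK minus CD8 T cells, was 2.22 (1.86 to 2.58 by counting error). Which cells of a library were captured can also set such a difference, and this was not tested.

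The remaining secreted factors moved in both directions. Of 14 listed cytokines and chemokines with 100 UMIs, 2 were past 1.5-fold higher and 2 lower, with a median of 0.01. Over all genes, 1.54% were past 1.5-fold higher and 2.74% lower. *Vegfa*, the vascular growth factor, was at 47.7 and 76.5 CPM (0.68, 0.37 to 0.99). *Cxcl10* (49.9 and 22.1 CPM, -1.17) and *Ccl9* (23.1 and 10.5 CPM, -1.14) were lower, and 5 cells held 67.1% and 44.1% of their UMIs. *Ifng* was at 43.1 and 39.6 CPM (-0.12, -0.50 to 0.26) and *Tnf* at 69.9 and 84.6 CPM (0.28, 0.00 to 0.55). *Ccl4* was at 387.8 and 294.7 CPM (-0.40, -0.53 to -0.27) and *Ccl5* at 546.1 and 498.5 CPM (-0.13, -0.24 to -0.03).

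Early response and stress genes were higher as a group. Of 27 genes, 23 had a log2 ratio above 0 and the median was 0.20, beside -0.06 over all 6831 genes. Beside 1.54% of all genes past 1.5-fold higher and 2.74% lower, 2 of the 27 were past it higher and none lower. These were *Nr4a1*, an orphan receptor induced by activating signals (63.1 and 104.8 CPM, 0.73, 0.47 to 1.00), and *Nfkbid*, an NF-κB regulator (25.6 and 50.9 CPM, 0.99, 0.59 to 1.41). *Nfkbia*, the NF-κB inhibitor IκBα that NF-κB itself induces, was at 729.5 and 1058 CPM (0.54, 0.46 to 0.62), *Junb* at 1220 and 1492 CPM (0.29, 0.23 to 0.35) and *Egr1* at 172.1 and 244.6 CPM (0.51, 0.34 to 0.67). *Fos* and *Fosb* went the other way, at 408.5 and 354.1 CPM (-0.21) and at 173.0 and 123.1 CPM (-0.49). The heat shock genes *Hspa8* (-0.05) and *Hsp90ab1* (-0.02) differed little.

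*Nfkbia* was present in 54.1% (48.6 to 59.6) of UT and 72.9% (67.0 to 78.2) of BUP-treated NK cells after thinning. Macrophage barcodes carry *Nfkbia* themselves, in 65.9% and 68.9%, so this share has no cell type that lacks the gene as background. In CD8 T cells the log2 ratios of *Nfkbia*, *Nfkbid* and *Nr4a1* were 0.24, 1.14 and 0.89, so all 3 were higher in both cell types. Tissue digestion can change early response genes, and its part was not tested.

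**Figure D4:**
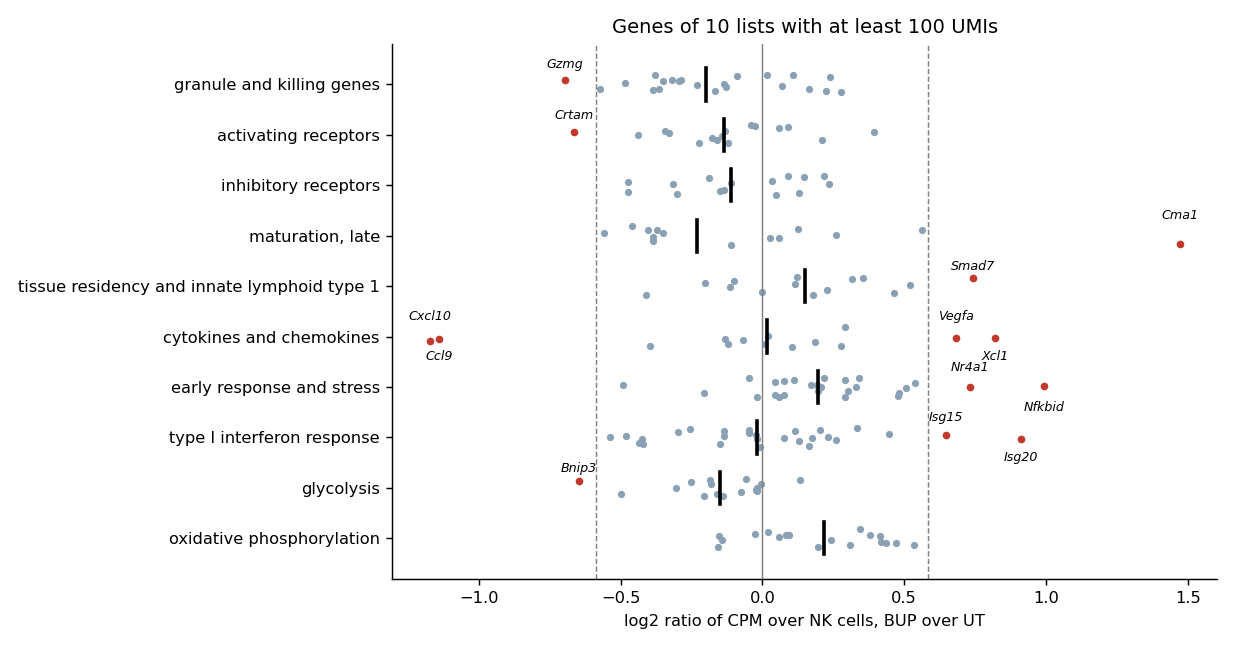
Log2 ratio of CPM over NK cells, BUP over UT, of genes with at least 100 UMIs in 10 gene lists. Each point is a gene, red points with names are past 1.5-fold (dashed lines), and black bars are list medians. Early response genes and oxidative phosphorylation genes lie mostly to the right of 0 and glycolysis genes mostly to the left.

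Maturation and residency were compared by 3 lists. Early maturation genes had 1 of 12 past 1.5-fold in each direction, *Xcl1* higher and *Ccr7* lower (34.5 and 6.99 CPM), where 5 cells held 81.5% of the *Ccr7* UMIs. *Tcf7* (48.6 and 48.9 CPM) and *Ltb* (448.8 and 455.0 CPM) were level. Late maturation genes had a median of -0.23, with *Ly6c2* at 196.7 and 133.6 CPM (-0.56), *Zeb2* at 107.4 and 78.0 CPM (-0.46) and *Itgb2* at 171.1 and 132.4 CPM (-0.37). *S100a4* (420.2 and 620.0 CPM, 0.56) and *S100a6* (1818 and 2176 CPM, 0.26) went the other way. The only gene of this list past 1.5-fold, *Cma1*, is a mast cell protease with 88.6% of its UMIs in 5 cells.

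Genes of tissue residency had a median of 0.15, beside -0.06 over all genes, with 10 of 14 ratios above 0. Past 1.5-fold higher was 1 gene, beside 1.54% of all genes. This was *Smad7*, an inhibitor of TGF-β signaling that TGF-β induces, at 76.7 and 128.1 CPM (0.74, 0.50 to 0.98), and in CD8 T cells its ratio was 0.61. *Itga1* was at 111.4 and 120.7 CPM (0.12, -0.11 to 0.34), *Cd69* at 206.5 and 155.3 CPM (-0.41, -0.59 to -0.23), *Ikzf2* at 36.0 and 51.6 CPM (0.52, 0.15 to 0.89) and *Cd9* at 125.0 and 172.4 CPM (0.46, 0.27 to 0.66).

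Cells were also split by UMIs of *Klrg1*, *S1pr5* and *Itgam* (mature sum) and of *Itga1*, *Cxcr6*, *Cd200r1*, *Il7r* and *Itgae* (residency sum), after thinning. A split by a sum is a range and not a cell type, and 19.3% of UT and 20.9% of BUP-treated cells lay at exactly 1 UMI of the mature sum. Cells with the mature sum only were 24.2% (19.6 to 29.2) and 23.6% (18.6 to 29.3), with the residency sum only 12.5% (9.15 to 16.6) and 12.4% (8.64 to 17.1), with both 7.34% and 8.91%, and with neither 56.0% and 55.0%. These shares differed by less than their counting intervals.

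Residency-only and mature-only cells differed in genes outside the split. *Xcl1* was at 328.4 CPM in residency-only and 200.1 CPM in mature-only cells of UT, and at 1059 and 289.4 CPM in BUP-treated tumors. *Emb* (132.5 against 66.3 CPM, and 165.6 against 72.8 CPM) and *Tmem176b* (106.6 against 45.4 CPM, and 117.7 against 23.1 CPM) were also higher in residency-only cells. *Gzma* was at 7147 against 11545 CPM and at 5135 against 9240 CPM, *Ccl5* at 285.2 against 566.5 CPM and at 396.7 against 807.8 CPM, and *Klra3* at 172.8 against 329.2 CPM and at 122.1 against 335.5 CPM. Within both libraries, the residency-only cells held more *Xcl1* and less *Gzma*.

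Transcription factors were close between the libraries, with 1 of 30 past 1.5-fold and a median of -0.07. *Stat5b*, which carries the IL-2 and IL-15 signal, was at 46.5 and 29.5 CPM (-0.66, -1.07 to -0.25). *Eomes* (-0.12, -0.29 to 0.05) and *Tbx21* (0.16, -0.10 to 0.41), the paired factors of the NK lineage, had intervals that held 0. *Id2* was at 1496 and 1533 CPM, *Irf8* at 1203 and 1254 CPM, *Bhlhe40* at 763.4 and 924.0 CPM (0.28, 0.19 to 0.36) and *Gata3* at 28.0 and 41.5 CPM (0.57, 0.15 to 0.99).

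Cytokine receptors had 1 of 23 past 1.5-fold, *Tgfbr3* (20.3 and 33.8 CPM), where 5 cells held 56.2% of the UMIs and the ratio turned from 0.73 to -0.63 without the 6% highest doublet scores. *Il2rb*, the receptor chain for IL-15, was at 1039 and 916.7 CPM (-0.18, -0.26 to -0.10) and *Tgfbr2* at 290.6 and 255.5 CPM (-0.19, -0.33 to -0.04). None of 17 genes of cytokine signaling feedback was past 1.5-fold, with *Pim1* at 412.5 and 502.8 CPM (0.29) and *Socs3* at 66.5 and 93.2 CPM (0.49). Homing and adhesion genes had a median of -0.22 and 2 of 20 past 1.5-fold lower, *Ccr7* and *Cxcr3* (22.8 and 15.1 CPM, -0.59, -1.19 to -0.01), the latter in 5 of 8 alternatives. *Ccr2*, the receptor by which NK cells enter inflamed tissue, was at 316.7 and 327.3 CPM (0.05, -0.09 to 0.18).

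Interferon genes did not move together. Of 27 type I interferon response genes, 2 were past 1.5-fold higher, beside 1.54% of all genes, and the median was -0.02. *Isg15* was at 100.7 and 157.6 CPM (0.65, 0.43 to 0.86), past 1.5-fold in 5 of 8 alternatives (0.31 to 0.72), and *Isg20* at 36.9 and 69.5 CPM (0.91, 0.57 to 1.26), while *Rsad2* was at 56.3 and 38.8 CPM (-0.54) and *Mx1* at 31.4 and 22.5 CPM (-0.48). None of 22 interferon γ response genes was past 1.5-fold, and the median was 0.01.

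Metabolic genes differed by small amounts in opposite directions, where the median log2 ratio over all genes was -0.06. Glycolysis genes had 15 of 16 ratios below 0 and a median of -0.15, with *Gapdh* at 772.6 and 626.2 CPM (-0.30, -0.39 to -0.21), *Ldha* at 1203 and 1060 CPM (-0.18) and *Bnip3* past 1.5-fold lower (48.0 and 30.7 CPM, -0.65), a call kept in 4 of 8 alternatives (-0.93 to -0.01). Oxidative phosphorylation genes had 14 of 18 above 0 and a median of 0.22, with *Cox8a* at 742.4 and 965.2 CPM (0.38, 0.30 to 0.46), *Atp5e* at 426.3 and 568.0 CPM (0.41, 0.31 to 0.52) and *Uqcrb* at 112.7 and 163.1 CPM (0.53, 0.33 to 0.74). CD8 T cells had ratios of -0.56 for *Gapdh*, 0.42 for *Cox8a* and 0.36 for *Atp5e*, the same directions as in NK cells. *Uqcrb* had a ratio of -0.03 in CD8 T cells, and the difference, NK minus CD8 T cells, was 0.56 (0.21 to 0.91).

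Cell cycle genes were near level, with none of 20 past 1.5-fold and a median of 0.02. *Mki67* was at 157.6 and 186.7 CPM (0.24, 0.06 to 0.43) and *Top2a* at 170.2 and 180.5 CPM (0.08, -0.10 to 0.27). By 2 or more UMIs over the 20 genes, 97.0% of NK cells of both libraries counted as cycling, and 77.7% and 72.9% after thinning. *H2az1* alone had a UMI in 88.9% and 92.8% of cells. By 10 mitotic genes, thinned, the shares were 13.1% (9.68 to 17.3) in UT and 16.7% (12.3 to 21.8) in BUP-treated NK cells, beside 28.7% and 27.0% in CD8 T cells.

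The study treats with a nerve blocker, so genes of nerve signals were read in the NK cells themselves. Of 25 cholinergic genes (acetylcholine synthesis, breakdown and receptors), 19 had no UMI and all 25 together had 25 UMIs in UT and 26 in BUP-treated NK cells. *Chrm3*, *Chrm5* and *Chrna7* had no UMI in either library, where a count of 0 allows up to 3. *Nr3c1* (the glucocorticoid receptor; 86.2 and 78.8 CPM, -0.13) and *Ramp1* (part of the CGRP receptor; 81.9 and 90.5 CPM, 0.14) had intervals that held 0.

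Over all genes, 105 of 6831 were past 1.5-fold higher in BUP-treated NK cells and 187 lower. Scaled by the median ratio of all genes, the counts were 148 and 140, so the balance of higher and lower genes rests on the scaling. The genes with the largest ratios were those of other cells. In BUP-treated NK cells the highest were *Col1a1* (3.39 and 37.3 CPM), *Dcn*, *Mcpt4*, *S100a8* (39.4 and 261.7 CPM), *Col3a1*, *Tpsab1*, *S100a9* (126.5 and 642.2 CPM), *Cxcl3*, *Timp1* and *Tpsb2*. The lowest were *Hba-a2* (299 UMIs in UT and 0 in BUP-treated cells), *Hbb-bs*, *Hba-a1*, *Tenm4*, *Ccl2* (141.6 and 22.9 CPM), *Lgmn*, *Ccr7*, *Ccl7*, *Pf4* and *Fscn1*. For all 20 of these genes, 5 cells held at least 50% of the UMIs, and 16 of the 20 were lower in NK cells than in the other barcodes of both libraries. The hemoglobin genes *Hba-a1* and *Hba-a2* are near-identical copies, and how reads divide between them is uncertain.

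Summed levels of marker lists of other cell types are given for that reason. In UT and BUP-treated NK cells, 7 neutrophil genes were at 223.8 and 1047 CPM, 5 erythroid genes at 411.2 and 4.27 CPM, 5 mast cell genes at 27.7 and 97.1 CPM, 7 tumor and stroma genes at 70.8 and 152.2 CPM and 6 B cell genes at 5.85 CPM and 0. T cell genes were at 431.9 and 386.7 CPM, with *Trbc1* and *Cd28* the largest part, γδ T cell genes at 224.4 and 241.9 CPM and genes of innate lymphoid types 2 and 3 at 37.9 and 59.8 CPM. Macrophage genes were at 6502 and 6183 CPM, of which *Spp1* made 5252 and 5370 CPM, and 6 of the 10 with 100 UMIs were past 1.5-fold lower (*C1qa*, *C1qc*, *Apoe*, *Lyz2*, *Cd68* and *Ctss*). The selection limits *C1qa*, *C1qc* and *Lyz2*. The part of these RNAs in the ratios of NK genes was not tested, but without the cells that held 3 or more neutrophil or hemoglobin UMIs the ratio of *Xcl1* was 0.96. Those of *S100a8*, *S100a9* and *Cxcl3* turned to -0.86, -0.66 and -2.63 without these cells.

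Genes at 2 or more times the level of the other barcodes in both libraries, a filter added after the data had been seen, numbered 591. Of these, 8 (1.35%) were past 1.5-fold higher and 18 (3.05%) lower, near the 1.54% and 2.74% of all 6831 genes. *Nrarp*, a Notch target, was the highest at 25.6 and 60.2 CPM (1.24, 0.84 to 1.64), present in 18.4% of UT and 32.8% of BUP-treated NK cells, followed by *H1f1* and *Xcl1*. The lowest were *Ctsg* (-1.19), where 5 cells held 71.9% of the UMIs, and *Adgrg3* (-1.16). *Atp2a3*, a calcium pump of the endoplasmic reticulum, was at 73.3 and 44.3 CPM (-0.73, -1.06 to -0.40) in 47.9% and 33.6% of cells.

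NK cells were set against CD8 T cells, the most similar killer cells, within each library. These were 138 UT and 246 BUP-treated barcodes with 2 or more UMIs of *Cd3d*, *Cd3e* and *Cd3g*, 2 or more of *Cd8a* and *Cd8b1* and none of *Ncr1* and *Klre1*, under the same limits on C1q and *Lyz2*. Because the classes were selected on transcripts, the differences are a description. Of 1663 genes at 100 CPM or more in a class, 21 (1.26%) were 4-fold or more higher in NK cells in both libraries and 22 (1.32%) 4-fold or more higher in CD8 T cells.

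*Gzma* separated the classes most, at 8111 against 23.7 CPM in UT and 6203 against 9.27 CPM in BUP-treated tumors. The CD8 T cell rule left out T cells with *Ncr1* or *Klre1* UMIs, which bears on the size of this gap. Barcodes with 2 or more UMIs of *Ncr1* and *Klre1* and 2 or more of *Cd3d*, *Cd3e* and *Cd3g* numbered 209 in UT and 323 in BUP-treated tumors. They held *Gzma* at 1302 and 407.1 CPM. *Klrg1* was at 278.3 against 7.02 CPM and at 257.8 against 2.73 CPM, *Tyrobp* at 1902 against 122.0 CPM and at 2182 against 159.7 CPM, *Clnk* (an adaptor of NK signaling) at 225.3 against 1.76 CPM and at 207.3 against 1.64 CPM and *Car2* (carbonic anhydrase 2) at 379.5 CPM against 0 and at 422.4 against 8.72 CPM. *Klrb1f*, *Atp1b1*, *Klra7*, *Klra3*, *Ccr2*, *Klrb1a*, *Rab27b*, *Gzmc* and *Gzmg* were also among the 15 highest. Not all killing genes separated them. *Gzmb* was at 3059 against 1854 CPM and at 2725 against 1008 CPM, *Prf1* at 1961 against 1146 CPM and at 1525 against 861.4 CPM, and *Nkg7* was lower in NK cells, at 1764 against 2286 CPM and at 1782 against 2140 CPM.

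Some inhibitory receptors, *Tox*, *Cxcr6* and *Ifng* were higher in CD8 T cells, whereas the inhibitory receptor *Klrg1* and the Ly49 genes *Klra3* and *Klra7* were higher in NK cells. *Pdcd1* (PD-1) was at 4.00 CPM in NK and 408.2 CPM in CD8 T cells of UT and at 2.33 and 335.3 CPM in BUP-treated tumors, *Lag3* at 66.8 against 333.6 CPM and at 68.3 against 255.2 CPM, *Tox* at 47.1 against 413.5 CPM and at 33.0 against 369.7 CPM and *Cxcr6* at 7.70 against 476.7 CPM and at 5.05 against 296.1 CPM. *Ifng* was at 43.1 against 295.9 CPM and at 39.6 against 254.6 CPM. *Tnf* was at 69.9 against 73.8 CPM and at 84.6 against 119.9 CPM, and *Flt3l*, a growth factor for dendritic cells, was higher in NK cells, at 96.0 against 66.7 CPM and at 96.7 against 62.2 CPM. *Klrh1*, *Nrn1*, *Cd5*, *Cd6*, *Themis*, *Trac* and the receptor segments *Trbv13-1* and *Trbv17* were the other leading genes of CD8 T cells. *Xcl1* was higher in NK cells by 1.13 (0.90 to 1.36) on the log2 scale in UT and by 3.35 (3.07 to 3.64) in BUP-treated tumors.

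**Figure D5:**
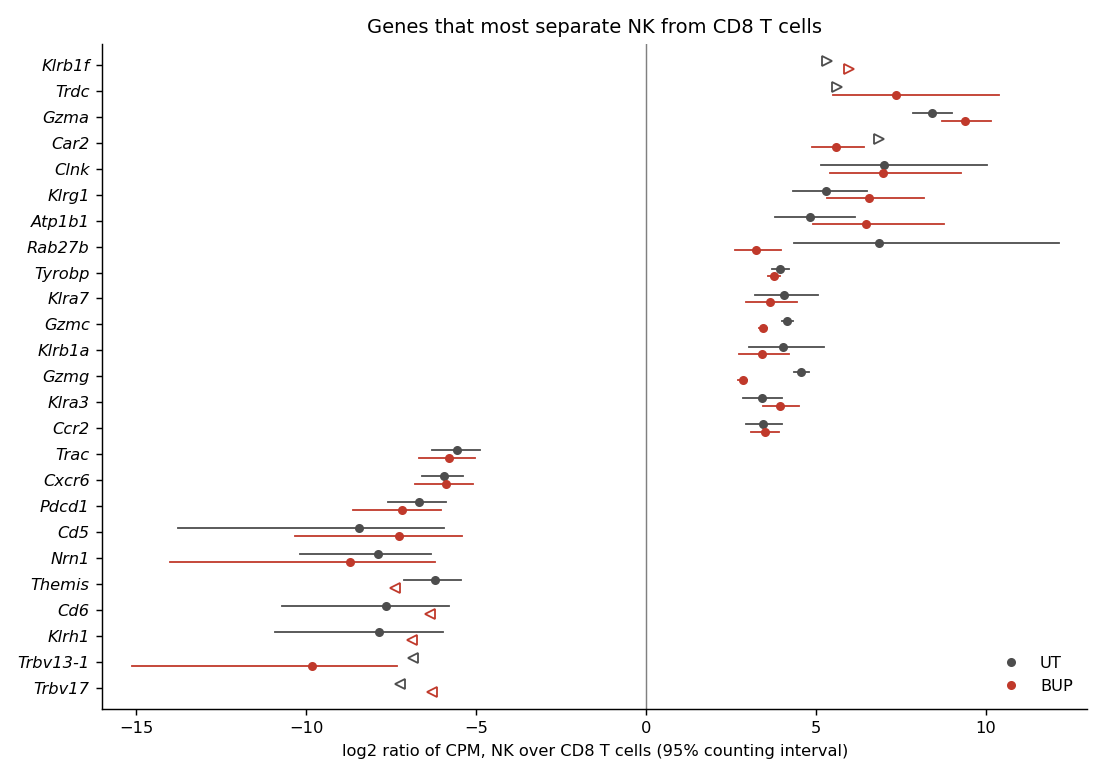
Log2 ratio of CPM of NK over CD8 T cells in UT (grey) and BUP-treated (red) tumors for the 15 genes with the highest and the 10 with the lowest ratio. Points are ratios, lines are 95% counting intervals, and open triangles mark the bound of the interval where a class had no UMI. Gzma and Trdc lie far to the right and Pdcd1 and Cxcr6 far to the left in both libraries.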

How the data were processed

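UMI counts per gene and barcode, made by the authors with Cell Ranger (8.0.1 in the submitters' processing notes) on GRCm39 and deposited without normalization, were used as they stand. The libraries are 10x 5' gene expression, and the study also used Seurat 5.0.1. NK cells, CD8 T cells and macrophage barcodes were selected by UMI rules, with no clustering. Macrophage barcodes had 10 or more C1q UMIs and no UMI of *Ncr1*, *Klre1*, *Cd3d*, *Cd3e* or *Cd3g*. The members and gene lists were chosen with earlier results of these data known. UMIs were summed per class. Comparison took genes that reached 100 UMIs in the libraries together, and past 1.5-fold counts as called. Intervals are exact Poisson, Clopper-Pearson binomial or conditional on the summed counts. Shares were also taken in cells thinned to 2000 UMIs. Named genes are the 4 markers, the 10 largest ratios each way, the most abundant and most different genes of each list, and the genes that most separate NK from CD8 T cells. Others were chosen after their values were seen. Doublets were scored with Scrublet (scanpy 1.11.5), and none were removed in the reported values. The sums and intervals were tested on simulated data. The tools were matplotlib 3.10.9, pandas 2.3.3, scipy 1.17.1 and numpy 2.4.6 under Python 3.11.15. Of 33696 gene IDs, 33185 were found in the annotation. Some genes of the lists are not reported here.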

Additional observations from a re-analysis of the deposited data

Results flagged for a closer look

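Barcodes outside the selection also carried NK receptor RNA. With 2 or more UMIs of *Ncr1* and *Klre1*, 209 UT and 323 BUP-treated barcodes had 2 or more *Cd3d*, *Cd3e* and *Cd3g* UMIs. They held *Trac* at 216.2 and 305.0 CPM, *Gzma* at 1302 and 407.1 CPM and *Nkg7* at 2168 and 2286 CPM, and *Gzma* had a UMI in 28.2% and 9.91% of them. A further 134 UT and 58 BUP-treated barcodes met the other limits but were over the limit on C1q or *Lyz2*. They held *Gzma* at 2483 and 1691 CPM, with median depths of 17818 and 17132.5 UMIs, deeper than the NK cells.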

How the results depend on the processing

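Of the ratios of single genes under the alternatives, 964 stayed within their counting interval, 245 moved beyond it and 15 that were past 1.5-fold turned sign. List medians were held against a 95% binomial range of the ratios of their own genes, and 239 stayed within it and 27 moved beyond. Thinning moved shares of cells with a UMI beyond their counting interval in 35 cases and not in 3. Other shares and counts moved in 33 cases and not in 67. The cause was not tested. *Xcl1*, *Smad7*, *Nrarp*, *Vegfa* and *Isg20* were past 1.5-fold higher in all 8 alternatives, *Nr4a1* and *Nfkbid* in 7, *Cma1* in 6 and *Stat5b* lower in 7. Genes of other cells also held: *Col1a1*, *Dcn*, *Mcpt4* and *Tpsab1* were past it higher and *Ccl2*, *Lgmn*, *Ccl7* and *Pf4* lower in all 8. Passing all 8 alternatives is therefore no mark of a change in NK cells. Ratios nearer 0 also changed sign, among them *Ly6a*, *Sh2d2a*, *Gzme*, *Gzmf* and *Klrg1*, which kept it in 3, 4, 5, 5 and 7 of 8. With a stricter selection (3 or more *Ncr1* and *Klre1* UMIs and no T cell UMI) the NK share of all barcodes was 3.32% in UT and 3.14% in BUP-treated tumors, of *Ptprc* barcodes 4.48% and 5.59%, and of NK and T cells 29.7% and 19.8%. Without the limits on C1q and *Lyz2* these were 6.51% and 4.77%, 8.77% and 8.48%, and 33.1% and 20.3%. With T cells from 1 Cd3 UMI, the share in UT was 32.9%. Genes past 1.5-fold higher and lower numbered 35 and 71 in thinned cells, 23 and 27 with at least 300 UMIs, 539 and 785 with at least 20 UMIs, and 8 and 18 among genes enriched in NK cells. Those lower numbered 285 without the 6% highest doublet scores and 390 as means over cells, and the stricter selection gave 142 and 140. Cycling shares were 77.7% and 72.9% thinned, 29.5% and 26.8% by 10 mitotic genes, and 13.1% and 16.7% by these after thinning. Without thinning, cells with both maturation and residency sums were 30.1% and 31.3%, and with neither 28.6% and 24.9%. The ratio of *Hbb-bs* turned to 0.15 under the stricter selection and 0.53 without the highest doublet scores, and that of *Hba-a1* to 1.15 and 1.75, and to 1.75 without cells with neutrophil or hemoglobin UMIs. Without those cells, *Cxcl3* turned to -2.63, *S100a9* to -0.66, *S100a8* to -0.86 and *G0s2* to -1.08. Without the highest doublet scores *Cxcl3* was at -0.98 and *Tgfbr3* at -0.63. *Tenm4* was at 0.029 without the deepest cells. *Gzmg* was at 0.33 as a mean over cells, 0.80 without the deepest cells and 0.41 thinned. The filters on neutrophil or hemoglobin UMIs and on NK-enriched genes were chosen after seeing the data. No paired analysis was possible because each condition has 1 library, which also allows no test and no library to be left out.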

Other observations

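NK cells differed in how many of the 7 granzyme genes *Gzma* to *Gzmg* they carried. After thinning, 2 of the 7 was the most frequent number, in 31.2% of UT and 31.8% of BUP-treated NK cells, none was in 3.36% and 3.10%, and all 7 were in 22 (6.73%) and 18 (6.98%). *Gzmf* was in 38.6% of UT and 31.8% of BUP-treated NK cells with *Gzmc*, and in 6.62% and 6.54% of those without it. *Klrg1* and *Itga1*, which mark maturation and residency, were together in 5.81% and 8.91% of thinned NK cells. *Xcl1* and *Ccl4* were together in 4.59% and 8.53%.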
